A study of Mus musculus with 24 samples.

Results

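The repressive mark H3K27me3 was compared with the permissive mark H3K4me2 at the promoters of coding genes in forelimb buds that lacked Sonic hedgehog. Of the 24 libraries of the series, 7 belong to this comparison: 2 immunoprecipitations of each mark and 3 inputs, of which H3K4me2 had 1 and H3K27me3 had 2. All came from Shh-/- embryos on a Swiss Webster background at E10.5 (32 to 35 somites), with about 400000 cells in each immunoprecipitation. By the study's methods the forelimb buds were pooled from several embryos and litters and carried a germline null allele of Shh, so every cell type of the bud was present and none could make the ligand. H3K27me3 was profiled in Shh-/- buds only. Other conditions of the series served as measures that the classes were not made from: H3K27ac in Shh-/- buds, H3K27ac and H3K4me2 in WT buds of the same strain and stage (a mixture of wild-type and heterozygous littermates by the methods), and H3K27ac in NIH3T3 cells, a mouse fibroblast line, treated with DMSO or with the Hedgehog agonist purmorphamine.

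Each of 21851 coding genes was given 1 promoter, from 2 kb before to 1 kb after the start of its principal transcript. A promoter carried a mark if a deposited peak covered at least 1 bp of it. This put 11195 promoters (51.2%) in the class with H3K4me2 only, 2280 (10.4%) in the class with both marks, 400 (1.83%) in the class with H3K27me3 only and 7976 (36.5%) in the class with neither. The 2 replicates of a mark were entered together when peaks were called, so each condition has 1 list and no spread between replicates. No test was therefore possible, shares are given with 95% Wilson intervals that cover counting error over genes only, and neighbouring genes are not independent.

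H3K27me3 is written by the Polycomb repressive complex PRC2 and is spread over developmental genes that a cell does not use. H3K4me2 lies around the starts of most active genes, and also of many inactive ones whose promoters are rich in CpG dinucleotides. Promoters that carry both kinds of methylation are called bivalent and were first described in embryonic stem cells at genes for transcription factors and signalling ligands. Acetylation of the same lysine, H3K27ac, cannot sit on a histone tail that already carries H3K27me3 and marks active promoters and enhancers. In a tissue of mixed cells, 2 marks at 1 promoter may lie on the same chromatin or in different cells of the bud, and fewer cells with a mark cannot be told apart from less of it per cell.

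Promoter sequences are shown first, since the classes differed in CpG content. The 200 bases before the start are shown 5′ to 3′ on the strand of the gene, read from the RefSeq copy of GRCm38 (mm10), for the first gene of each marked class and for 2 reference genes. Genes with 1 mark were ordered by the rank of their best peak, and genes with both marks by the worse of their 2 rank percentiles. CpG dinucleotides are in capitals, and no GENCODE exon lies in these stretches. Asic2, an acid-sensing ion channel gene, led the class with H3K4me2 only. Pde10a, which encodes a phosphodiesterase, led the class with both marks, and Neurod2, a neuronal differentiation factor, led the class with H3K27me3 only. Pax6, a regulator of eye and neural tube development, carried H3K27me3 alone and Alb, the serum albumin gene of the liver, carried neither.
Asic2, H3K4me2 only (chr11:81153322-81153521, minus strand): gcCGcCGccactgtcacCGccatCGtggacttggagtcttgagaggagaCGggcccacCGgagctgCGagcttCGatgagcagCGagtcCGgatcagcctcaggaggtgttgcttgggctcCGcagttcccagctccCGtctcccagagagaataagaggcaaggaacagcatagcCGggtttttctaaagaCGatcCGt
Pde10a, both (chr17:8801493-8801692, plus strand): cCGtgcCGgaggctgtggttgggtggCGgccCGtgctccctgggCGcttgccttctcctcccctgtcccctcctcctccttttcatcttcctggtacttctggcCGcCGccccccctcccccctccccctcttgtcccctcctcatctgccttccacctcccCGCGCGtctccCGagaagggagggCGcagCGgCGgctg
Neurod2, H3K27me3 only (chr11:98329649-98329848, minus strand): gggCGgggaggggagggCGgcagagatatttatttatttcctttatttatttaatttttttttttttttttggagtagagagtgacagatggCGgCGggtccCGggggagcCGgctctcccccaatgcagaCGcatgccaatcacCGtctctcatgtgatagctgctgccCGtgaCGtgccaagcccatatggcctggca
Pax6, H3K27me3 only (chr2:105668700-105668899, plus strand): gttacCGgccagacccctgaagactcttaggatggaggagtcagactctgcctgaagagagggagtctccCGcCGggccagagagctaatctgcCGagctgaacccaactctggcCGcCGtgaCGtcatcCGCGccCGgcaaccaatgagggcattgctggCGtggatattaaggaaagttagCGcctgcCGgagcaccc
Alb, neither (chr5:90460697-90460896, plus strand): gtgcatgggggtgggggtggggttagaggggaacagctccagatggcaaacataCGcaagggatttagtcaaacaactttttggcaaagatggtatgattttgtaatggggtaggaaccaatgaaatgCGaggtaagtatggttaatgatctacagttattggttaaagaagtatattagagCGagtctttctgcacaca
The stretch of Asic2 held 15 CpG, that of Pde10a 14, that of Pax6 13 and that of Neurod2 10, while the stretch of Alb held 3.

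The lists differed in length and in how firmly their peaks were called. The H3K27me3 list held 20846 peaks with a median width of 150 bp and covered 10.48 Mb, and 47.2% of the peaks used had a false discovery rate (FDR) under 0.05. The Shh-/- H3K4me2 list held 38497 peaks with a median width of 400 bp and covered 19.7 Mb, with 87.5% under that FDR. Peaks at promoters were called more firmly than the list as a whole: the best H3K27me3 peak had an FDR under 0.05 at 1912 of 2280 promoters with both marks (83.9%) and at 314 of 400 with H3K27me3 only (78.5%). The lists hold no read counts, so the depth of each library cannot be read from them.

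H3K27me3 fell mainly on promoters that also carried H3K4me2. Of the 2680 promoters with H3K27me3 (12.3% of all), 85.1% carried H3K4me2 (95% interval 83.7 to 86.4), against 58.4% (57.7 to 59.1) of the promoters without H3K27me3. Read the other way, 16.9% of the 13475 promoters with H3K4me2 (61.7% of all) carried H3K27me3, against 4.78% of those without H3K4me2. A promoter with H3K27me3 and no H3K4me2 was thus the rarest kind in the bud. Its number depended on list length: it was 739 in place of 400 when only as many of the best-ranked H3K4me2 peaks were kept as the H3K27me3 list holds, and 669 with the better-ranked 50% of each list.

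The Hedgehog genes were described first, since the mutation removes the ligand. Shh itself (start at 28467256 on chromosome 5), the ligand expressed by the posterior signalling centre of the limb bud, carried H3K27me3 over 1994 of the 3001 bp of its promoter in the Shh-/- list, inside an H3K27me3 domain of 12750 bp, and had no H3K4me2 and no H3K27ac peak. In WT buds an H3K4me2 peak covered 500 bp of the same window and no H3K27ac peak was called. Peaks over this window do not check the genotype. Of the 20 Hedgehog pathway genes, 12 carried H3K4me2 only (60%, against 51.2% of all genes) and 6 carried both marks (30%, against 10.4%). Shh and Dhh, another ligand of the family, carried H3K27me3 only (10%, against 1.83%).

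The receptors and the transcription factors of the pathway were divided between the classes. Gli2 and Gli3, which encode the transcription factors that repress target genes when the ligand is absent, had H3K4me2 over 1350 and 1620 bp, no H3K27me3, and H3K27ac over 2831 and 3001 bp in Shh-/- buds. Smo, the signal transducer, and Disp1, which releases the ligand, were in the same class. The other class held the genes that are known as transcriptional targets of the pathway: Gli1, Ptch1 and Hhip all carried both marks. Ihh, another ligand, and Scube2, which helps to release ligand, did so too.

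The targets were not marked to the same extent. Gli1, a transcription factor whose expression reports pathway activity, had H3K27me3 over 1076 bp and H3K4me2 over 100 bp, from an H3K4me2 peak ranked 34203 in its list, whereas the WT list covered 926 bp of the same promoter with H3K4me2. H3K27ac covered 826 bp of it in WT buds and none in Shh-/- buds. Ptch1, the main receptor, was the weakest case: its H3K27me3 peak covered 100 bp, had an FDR of 0.246 and ranked 20476 of 20846, beside 2601 bp of H3K4me2. H3K27ac at Ptch1 covered 2851 bp in WT and 265 bp in Shh-/-. With an FDR under 0.05 in both lists 3 of the 20 genes were left with both marks. These are single lists, so whether the acetylated or H3K4me2 width differed between WT and Shh-/- buds was not tested here. The study, which compared the genotypes, reported H3K27ac regions at Gli1 and Ptch1 that were reduced or lost without Shh. It found nearly all H3K4me2 peaks unchanged.

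Genes of the limb field itself often carried both marks and were acetylated nevertheless. Of 44 regulators of limb mesenchyme, 17 carried H3K4me2 only, 25 both marks (56.8%, against 10.4% of all coding genes) and 2 H3K27me3 only, and none was without a mark. H3K27ac was present at all 17 with H3K4me2 only and at 22 of the 25 with both. That is 88.0% of the promoters with both marks on this list, beside 13.0% of such promoters over all genes. The best-ranked members with H3K4me2 only were Fgf10, the mesenchymal growth factor that starts limb outgrowth, with 2450 bp, Sall4 with 1549 bp, Etv5 with 1900 bp and Nr2f2 with 2344 bp.

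The limb regulators with both marks included some that are used in only a part of the bud. Prrx1 and Tbx5, which are used throughout the forelimb mesenchyme, carried both marks too. Whether use in a part of the bud went with the class was not tested. Hand2, which is restricted to posterior mesenchyme and acts upstream of Shh, had H3K27me3 over 2100 bp, H3K4me2 over 1584 bp and an overlap of the 2 over 950 bp, and lay in an H3K27me3 domain of 22850 bp. H3K27ac covered 534 bp there in Shh-/- buds and 2151 bp in WT. Sall1 and Sall3, zinc finger factors of the limb, had H3K27me3 over 2150 and 2201 bp and H3K4me2 over 1938 and 2329 bp. Tbx2, a T-box factor of the limb margins, had 1851 and 1700 bp. Grem1, the BMP antagonist that keeps the apical ridge active, had H3K27me3 over 550 bp and H3K4me2 over 1554 bp, with H3K27ac over 700 bp in WT and none in Shh-/-. Osr1 and Tcf21 were the other 2 with both marks and no Shh-/- H3K27ac. Osr2, a zinc finger factor, and Tfap2b, which is known from neural crest and facial development, carried H3K27me3 only, over 3001 and 2851 bp.

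Prrx1 and Tbx5, which are used throughout the forelimb mesenchyme, were acetylated over nearly the whole window. Prrx1, a homeobox gene of all limb mesenchyme, had 1 H3K27me3 peak of 100 bp with an FDR of 0.233, and H3K27ac over the whole 3001 bp. Tbx5, which is required for the forelimb to form, had H3K27me3 over 750 bp (FDR 0.032), H3K4me2 over 2601 bp and H3K27ac over 2901 bp. Narrowing the promoter to 500 bp on either side of the start left 14 limb mesenchyme genes with both marks, and requiring an FDR under 0.05 left 20, so the share with both marks depends on peaks at the edge of the window and on weak peaks.

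The genes that specify the hindlimb were set beside the forelimb gene Tbx5. None of the 6 hindlimb identity genes had H3K27ac in Shh-/- buds, against 39.3% of all promoters. All 6 carried H3K27me3. Over all genes, 13.0% of promoters with both marks and 1.5% with H3K27me3 only had H3K27ac. Absence of H3K27ac at these 6 genes is therefore no check of the tissue. Pitx1, the homeobox gene that specifies hindlimb, had H3K27me3 over 3001 bp and H3K4me2 over 850 bp, Tbx4, the hindlimb counterpart of Tbx5, had 873 and 200 bp, and Isl1 had 1451 and 1050 bp. Hoxc9, Hoxc10 and Hoxc11 carried H3K27me3 only. H3K27ac was thus called at the forelimb gene Tbx5 and at neither of the hindlimb genes Tbx4 and Pitx1.

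The Hox clusters all carried H3K27me3, most of it at their high-numbered ends. Hox genes encode the homeodomain factors that pattern the limb and trunk, and within a cluster the genes with high numbers are used last and most distally. Of 39 Hox genes, 8 carried H3K4me2 only (20.5%, against 51.2% of all genes) and 25 both marks (64.1%, against 10.4%). The other 6 carried H3K27me3 only (15.4%, against 1.83%), and none carried neither (36.5% of all genes). In the Hoxc cluster Hoxc4, Hoxc5 and Hoxc6 had H3K4me2 over 650, 785 and 1051 bp with no H3K27me3, Hoxc8 had H3K27me3 over 1808 bp and H3K4me2 over 750 bp, and the genes from Hoxc9 to Hoxc13 had H3K27me3 over 2451 to 3001 bp and no H3K4me2. H3K27ac followed the first group: it was called at Hoxc4, Hoxc5 and Hoxc6 and at none from Hoxc8 to Hoxc13, in Shh-/- and in WT buds.

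**Figure D1:**
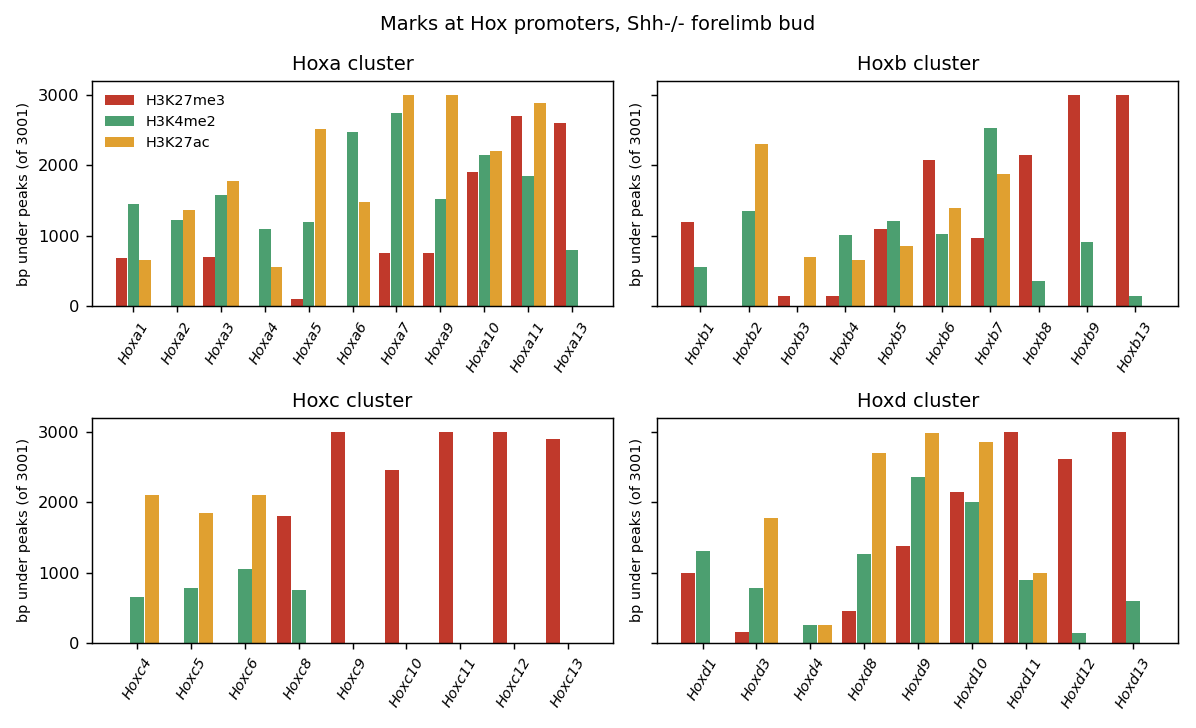
Bases of each Hox promoter (3001 bp) under H3K27me3, H3K4me2 and H3K27ac peaks in Shh-/- forelimb buds, 1 list per mark, with genes in the order of their numbers. H3K27me3 covers 2601 bp at Hoxa13, 3001 bp at Hoxb13, 2901 bp at Hoxc13 and 3001 bp at Hoxd13, and H3K27ac is absent from these 4 promoters.

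In the Hoxa and Hoxd clusters, which drive growth and patterning of the limb, most genes carried both marks. Hoxa2, Hoxa4 and Hoxa6 had H3K4me2 only, and the other 8 Hoxa genes had both marks. H3K27me3 covered 1901 bp at Hoxa10, 2701 bp at Hoxa11 and 2601 bp at Hoxa13, yet H3K27ac covered 2201 bp at Hoxa10 and 2890 bp at Hoxa11 and was not called at Hoxa13 in either genotype. All but 1 of the 9 Hoxd genes had both marks, Hoxd4 being the exception with 250 bp of H3K4me2. Hoxd10 had H3K27me3 over 2151 bp, H3K4me2 over 2001 bp and H3K27ac over 2851 bp, so that the 3 marks covered much of the same window.

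At the distal end of the Hoxd cluster the Shh-/- lists had less H3K4me2 and H3K27ac than the WT lists. Hoxd11 was wholly under H3K27me3 (3001 bp) with H3K4me2 over 900 bp in Shh-/- and 1700 bp in WT, and with H3K27ac over 1000 bp in Shh-/- and 2127 bp in WT. Hoxd12 had H3K27me3 over 2614 bp, H3K4me2 over 137 bp in Shh-/- and 1064 bp in WT, and H3K27ac over 1987 bp in WT alone. Hoxd13, the most distal gene, was wholly under H3K27me3 with H3K4me2 over 600 bp in Shh-/- and 950 bp in WT, and with H3K27ac over 600 bp in WT alone. H3K27me3 was not measured in WT buds, so whether its extent differs there cannot be said. The differences in width rest on 1 list each and were not tested here. The study's own comparison of the genotypes found nearly all H3K4me2 peaks unchanged.

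The Hoxb cluster had both marks at 8 of 10 genes. Hoxb2 had H3K4me2 only, and Hoxb3 was placed with H3K27me3 only by a peak over 150 bp although H3K27ac covered 700 bp of its promoter. H3K27me3 covered 3001 bp at Hoxb9 and at Hoxb13, whose H3K4me2 covered 908 and 150 bp. Over the 4 clusters, 16 of the 25 Hox genes with both marks had H3K27ac in Shh-/- buds (64%, against 13.0% of such promoters over all genes). Among the acetylated genes, Hoxa5, Hoxb4 and Hoxd3 had H3K27me3 over only 100, 150 and 150 bp. The FDR of their best H3K27me3 peaks was 0.244, 0.225 and 0.052, so their place in the class is uncertain.

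Regulators of tissues that the limb bud does not form carried H3K27me3 almost without exception. Of 63 neural regulators, 39 carried both marks, 23 carried H3K27me3 only, Neurod4 carried neither and none carried H3K4me2 only. Thus 61.9% had both marks (10.4% of all genes) and 36.5% had H3K27me3 only (1.83% of all genes). Only Zic2 and Zic5, zinc finger genes that are neighbours on 1 chromosome, had H3K27ac in Shh-/- buds. Over all genes it was present at 13.0% of promoters with both marks and 1.5% with H3K27me3 only. Otx1, a forebrain and midbrain factor, had H3K27me3 over 2701 bp and H3K4me2 over 1400 bp. En2, a midbrain factor, had 2345 and 1295 bp, and Atoh1, a proneural factor, had 1476 and 2126 bp.

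The neural regulators without H3K4me2 were often covered over most of the window. Neurod2 had H3K27me3 over 2802 bp within a domain of 26700 bp, Fezf2, a forebrain factor, was wholly covered, Lhx5, a LIM homeobox factor, was wholly covered, and Barhl1 had 2601 bp. Pax6 was wholly covered, inside a domain of 33150 bp, and had no H3K4me2 peak in the window in Shh-/- or WT buds. These 23 genes were not placed by thin peaks: the narrowest cover among them was 590 bp. Without H3K4me2 in the Shh-/- list, 6 of the 23 nevertheless had a WT H3K4me2 peak.

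Most regulators of endoderm, heart and kidney also carried H3K27me3. Of 38 genes, 26 carried both marks (68.4%, against 10.4% of all genes), 9 carried H3K27me3 only (23.7%, against 1.83%), 2 carried neither, among them Hnf4a, a liver and gut factor, and Tbx6, a paraxial mesoderm factor, was the only 1 with H3K4me2 only. In Shh-/- buds H3K27ac was present at 3 of the 26 with both marks (11.5%, against 13.0% of such promoters over all genes). Of these, Foxa3 also had it in WT buds and Gata6 did not. Prox1 (lymphatic and liver fate) had H3K27me3 over 1815 bp and H3K4me2 over 1586 bp, and Gata5 (heart and endoderm) had 1651 and 1200 bp. Nkx2-3, Cdx2 and Foxa2 were among the best-ranked genes with H3K27me3 only, with 3001, 3001 and 2851 bp.

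**Figure D2:**
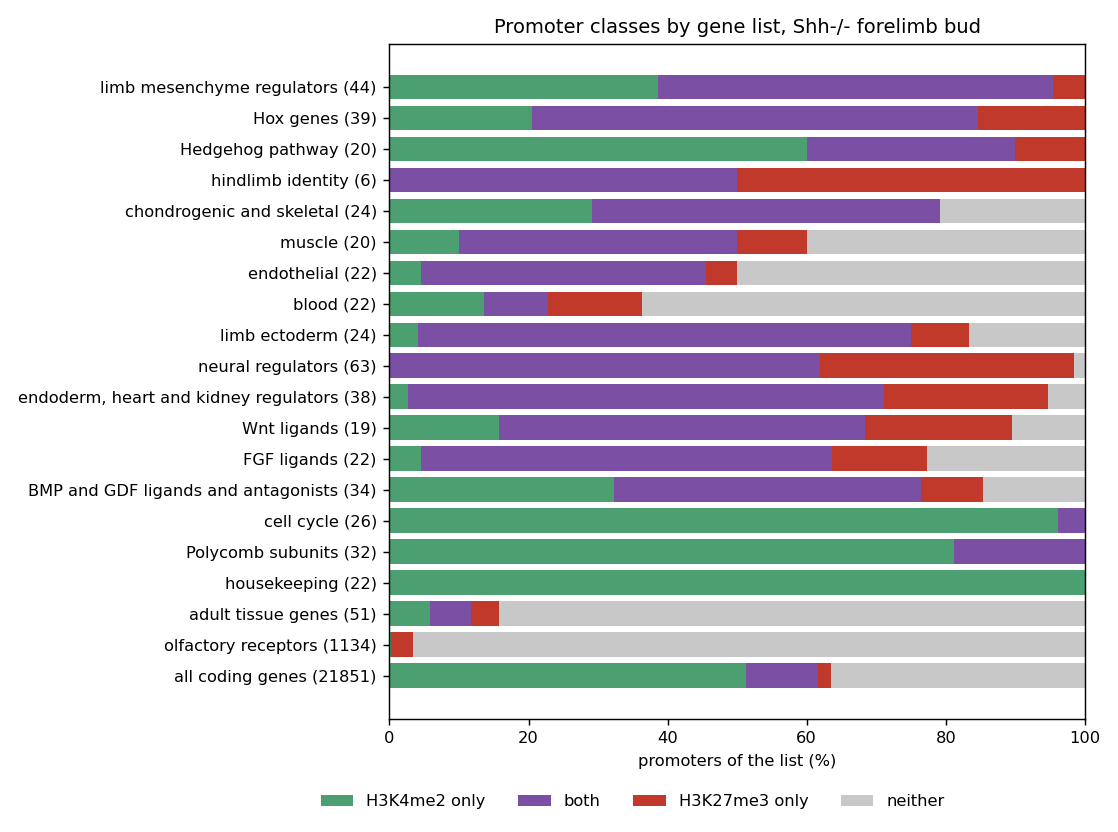
Share of the promoters of each gene list in the 4 classes, in percent, with the number of genes found in parentheses and all 21851 coding genes in the lowest bar. The neural list has 61.9% with both marks and 36.5% with H3K27me3 only, and the housekeeping list has H3K4me2 only.

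Genes of the ectoderm and of muscle, which make up a minority of the bud, were in every class. Among 24 limb ectoderm genes, 17 carried both marks (70.8%, against 10.4% of all genes), Wnt7a and Grhl3 carried H3K27me3 only, Rspo2 H3K4me2 only, and Krt5, Krt14, Sp6 and Trp63 neither. Fgf9, a ridge growth factor, had H3K27me3 over 1187 bp and H3K4me2 over 2364 bp, and Cdh1, the epithelial cadherin, had 1952 and 600 bp. Grhl2, an epithelial factor, was the only 1 of the 17 with H3K27ac in Shh-/- buds, and had none in WT. Over all genes, 13.0% of promoters with both marks had H3K27ac in Shh-/- buds. Among 20 muscle genes, 8 carried both marks (40%), 2 H3K4me2 only, 2 H3K27me3 only and 8 neither (40%, against 36.5% of all genes). Of those with both, Lbx1 and Pax3, factors of the muscle precursors that migrate into the limb, were wholly under H3K27me3 (3001 bp). Both had H3K27ac in Shh-/- buds and no H3K27ac peak in WT buds, a difference that was not tested. Myod1, the myogenic determination factor, and Acta1, skeletal actin, carried H3K27me3 only, over 1475 and 1049 bp.

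Endothelial and blood genes differed in how often they carried both marks. Among 22 endothelial genes, 9 carried both marks (40.9%, against 10.4% of all genes), Etv2 H3K27me3 only, Fli1 H3K4me2 only, and 11 neither (50.0%, against 36.5%). Kdr and Flt1, receptors for vascular growth factor, had H3K27me3 over 1350 and 3001 bp and H3K4me2 over 1450 and 1100 bp. None of the 9 had H3K27ac, where 13.0% of promoters with both marks over all genes had it in Shh-/- buds. Among 22 blood genes, Ikzf1 and Epor carried both marks (9.09%), Lyl1, Tal1 and Gfi1b H3K27me3 only, 3 genes including Klf1 and Cd34 H3K4me2 only, and 14 neither (63.6%). Among 24 chondrogenic and skeletal genes, 7 carried H3K4me2 only (29.2%, against 51.2% of all genes) and 12 both marks (50.0%, against 10.4%). The other 5 carried neither (20.8%, against 36.5%). Sox9, the factor that commits cells to cartilage, had H3K4me2 over 1775 bp with H3K27ac and no H3K27me3, whereas Col9a1, Matn1, Runx2, Runx3 and Sox6 had no peak of either mark in the window. Nog, a BMP antagonist, had H3K27me3 over 668 bp, H3K4me2 over 1850 bp, and H3K27ac in Shh-/- but not in WT buds.

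Signalling ligands often carried both marks, the class of 10.4% of all coding genes. Of 22 FGF ligands, Fgf10 alone carried H3K4me2 only, 13 carried both marks (59.1%), Fgf14, Fgf17 and Fgf21 carried H3K27me3 only, and 5 carried neither. No FGF ligand with both marks had H3K27ac, where 13.0% of such promoters over all genes had it in Shh-/- buds. Among them were Fgf11, whose promoter was wholly under H3K27me3 with H3K4me2 over 1451 bp, and Fgf18, with 1050 and 1650 bp. Of 19 Wnt ligands, Wnt5a and Wnt5b, ligands best known for signalling without beta-catenin, carried H3K4me2 only with H3K27ac, Wnt16 carried H3K4me2 only without it, 10 carried both marks (52.6%), Wnt1, Wnt3a, Wnt7a and Wnt10b carried H3K27me3 only, and 2 carried neither. Wnt1, a ligand of the dorsal neural tube, had H3K27me3 over 2258 bp, and Wnt11 and Wnt2b, both with the 2 marks, had 1732 and 1829 bp of H3K27me3 beside 1532 and 1350 bp of H3K4me2. Of 34 BMP and GDF ligands and antagonists, 11 carried H3K4me2 only (Bmp7 and Gdf11 among them, both acetylated), 15 both marks (44.1%), Bmp8b, Lefty1 and Lefty2 H3K27me3 only, and 5 neither. Nog, Bmper and Gdf6 were the members with both marks and H3K27ac in Shh-/- buds (20% of the 15). None of them had an H3K27ac peak in WT buds.

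Families of developmental transcription factors often carried both marks, the class of 10.4% of all coding genes. H3K27me3 with or without H3K4me2 lay at 12.3% of all. All 9 Pax genes carried H3K27me3: Pax1, Pax2, Pax3, Pax7 and Pax9 with H3K4me2, and Pax4, Pax5, Pax6 and Pax8 without. All 12 LIM homeobox genes carried it as well, 10 with H3K4me2 and Lhx3 and Lhx5 without. Of 47 homeobox genes of the sine oculis, Irx, Dlx, Nkx and Pou families, 31 carried both marks (66.0%) and 7 H3K27me3 only (14.9%, against 1.83% of all genes). Of 16 T-box genes 11 carried both (68.75%), of 44 forkhead genes 23 (52.3%) and of 19 Sox genes 8 (42.1%). Outside transcription factors, 47 of 94 potassium channel genes carried both marks (Kcnd3 with 2601 bp of H3K27me3 and 1600 bp of H3K4me2). Another 21 carried H3K4me2 only, 6 H3K27me3 only and 20 neither. Of the 47, 2 were acetylated in Shh-/- buds (4.26%, against 13.0% of promoters with both marks over all genes). These lists and the ones above share members, so they are not separate evidence.

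Genes that all cells use mostly carried H3K4me2 alone, the class of 51.2% of all coding genes. All 22 housekeeping genes were in that class, as were 25 of 26 cell cycle genes, 35 of 39 proteasome genes, 141 of 147 mitochondrial ribosomal and respiratory genes, 76 of 88 ribosomal protein genes and 62 of 67 replication-dependent histone genes. Of 394 zinc finger genes taken by the symbol Zfp, which are not all in general use, 332 were in it too. The cell cycle exception was Cdk4, with an H3K27me3 peak over 216 bp that did not overlap the H3K4me2 peak. Psmb8 and Psmb9, the subunits of the immunoproteasome, were the 2 proteasome genes with both marks, with H3K27me3 over 2541 and 586 bp. Rpl22l1 and Ndufaf4 were the only genes of the ribosomal and the mitochondrial list with H3K27me3, over 150 and 100 bp. Neither peak had an FDR under 0.05 or overlapped H3K4me2. The 11 and 5 others outside the class carried neither mark.

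Most genes for the machinery of the 2 marks carried H3K4me2 only. Of 32 Polycomb subunits, 26 carried H3K4me2 only (81.25%, against 51.2% of all genes) and 6 both marks (18.75%, against 10.4%). Of the 32, 30 were CpG-rich, and the part of CpG content in these shares was not tested. Phf19, Pcgf5, Cbx8, Cbx7 and Bmi1 were among the 6. Cbx7, a reader of H3K27me3, had H3K27me3 over 2851 bp and H3K4me2 over 550 bp. Of the 6, 3, including Cbx8 and Bmi1, had H3K27ac as well in Shh-/- buds (50%, against 13.0% of such promoters over all genes). Of the 20 H3K4 methyltransferases and H3K4 or H3K27 demethylases, 18 carried H3K4me2 only (90%, against 51.2% of all genes). Dpy30 and Kdm5d carried neither, so none carried H3K27me3 (12.3% of all genes did). Among 8 inhibitors of cyclin-dependent kinases, Cdkn2a, the classical Polycomb target of the group, had H3K27me3 over 2651 bp and H3K4me2 over 1350 bp, Cdkn2b had 761 and 550 bp, and Cdkn2c had 61 and 1311 bp. Cdkn1c carried H3K27me3 only, by 1 peak over 100 bp, and had H3K27ac.

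Most genes of differentiated adult tissues carried neither mark, the class of 36.5% of all coding genes. Of 51 adult tissue genes found in the annotation, 43 (84.3%) had no peak of either mark, among them Alb, Afp, Apoa1 and Amy2a5. Snap25, Syn1 and Ins1 had H3K4me2 only, Gad1, Gad2 and Slc17a7 both marks, and Slc32a1 and Lor H3K27me3 only. Of these 8, Gad1, Gad2, Slc17a7 and Slc32a1 encode the enzymes and carriers of the main neurotransmitters. All 57 keratin-associated protein genes, 1096 of 1134 olfactory receptor genes, 321 of 329 vomeronasal receptor genes and 52 of 57 clustered protocadherin genes were in the class with neither mark. The defensin list had 64 of 66 with neither, and the 2 with H3K4me2, Def6 and Def8, were taken in by their symbols and are not defensins.

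The receptor families supplied a tail of the class with H3K27me3 only. In it were 35 of 1134 olfactory receptor genes (3.09%) and 7 of 329 vomeronasal receptor genes (2.13%), near the 1.83% of all coding genes. These 42 of the 400 had H3K27me3 over 83 to 206 bp (median 100 bp). The best peak had an FDR under 0.05 at 13 of the 42, none had H3K27ac or WT H3K4me2, and none was CpG-rich. Both families hold near-identical copies whose reads are hard to assign, so these marks are uncertain. The class ranged from single thin peaks to wide domains: 132 of the 400 lay in a domain of at most 500 bp while 150 lay in a domain of at least 3 kb.

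The first 10 genes of each class, in the order used for the sequences, were of different kinds. In the class with H3K27me3 only they were Neurod2, Hoxc13, Wnt1, Tlx1, Uncx, Prdm13, Prdm12, Lyl1, Skor2 and Ltk, of which all but Wnt1 and Ltk encode transcription regulators. The largest log2 ratio of ChIP to input in their best peaks lay between 5.10 (Ltk) and 5.61 (Neurod2). In the class with both marks, ordered by the worse of the 2 rank percentiles, they included Pde10a, Itpka, Elfn1, Cabp7, Pou3f1, Megf11, Otx1, Cdkn2c and Trnp1, in which proteins of calcium and second messenger signalling (Pde10a, Itpka, Cabp7) stood beside the homeobox factors Pou3f1 and Otx1. Itpka and Cdkn2c had H3K27ac and the other 8 had none. In the class with H3K4me2 only they were Asic2, Malt1, Map1b, Ski, Cdh4, Terb1, Dop1b, Frat2, Bnc2 and Snx27, and Ski, Frat2, Bnc2 and Snx27 had H3K27ac.

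Within the 2280 promoters with both marks the peaks usually lay on each other. The 2 marks overlapped by at least 1 bp at 1939 of them (85.0%, 83.5 to 86.4), and the median promoter had 918.5 bp of H3K27me3, 950 bp of H3K4me2 and 350 bp under both. At 99 of them the whole window was under H3K27me3, and 86 of these 99 were CpG-rich and 3 acetylated. Among these the widest H3K4me2 was at Tmem132e (2651 bp), followed by Dll1, a Notch ligand (1974 bp), Lhx4 (1800 bp), Egr3 (1536 bp) and Fgf11 (1451 bp). At the other end, 183 promoters held at most 100 bp of H3K27me3 and 44 held at most 100 bp of H3K4me2. Of those 183, 28 had a best H3K27me3 peak with an FDR under 0.05 and 63 (34.4%) were acetylated.

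The 2 marks were placed differently around the start. At promoters with H3K4me2 only, H3K4me2 covered 71.9% of promoters 550 bp after the start and 30.7% at the start itself. At promoters with both marks it was most frequent 250 bp after the start, where it covered 76.4%, and still covered 66.1% at the start, so the dip was not seen there. H3K27me3 at the same promoters was most frequent 750 bp after the start (61.1%) and covered 41.3% at the start. At 5 kb after the start H3K27me3 covered 18.0% of promoters with H3K27me3 only and 7.50% of those with both. The typical domain was no wider in the former class, with a median of 1700 bp (quartiles 200 and 5012.5 bp) against 1900 bp (700 and 3400 bp).

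**Figure D3:**
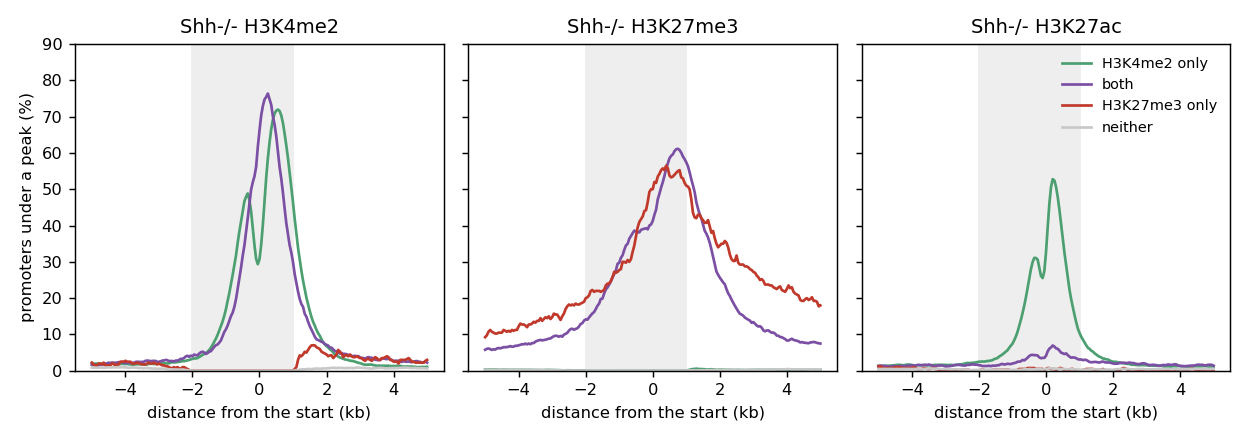
Share of promoters of each class under a peak of the named mark, in percent, by distance from the start in kb, in steps of 50 bp. The grey band is the window that defined the classes. H3K4me2 dips to 30.7% at the start in the class with H3K4me2 only and stands at 66.1% there in the class with both marks.

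Among promoters with H3K4me2, H3K27ac, which the classes were not made from, was far less frequent where H3K27me3 was present. Among promoters without H3K4me2 it was rare with or without H3K27me3, and the 2 intervals overlap. In Shh-/- buds an H3K27ac peak was called at 72.6% of promoters with H3K4me2 only (71.7 to 73.4), 13.0% with both marks (11.7 to 14.4), 1.5% with H3K27me3 only (0.689 to 3.23) and 2.02% with neither (1.73 to 2.35), against 39.3% of all. The share with neither was 10.8% with the better-ranked 50% of each list. The WT list gave 77.7%, 14.0%, 1.75% and 2.56% in the same order. The 6 acetylated promoters with H3K27me3 only were those of Cdkn1c, Gm6685, Hoxb3, Sim2, Syap1 and Tceal9. The 296 acetylated promoters with both marks (1.35% of all promoters) had less H3K27me3 than the other 1984, a median of 424 against 1000 bp, and more H3K4me2, a median of 1350 against 900 bp.

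Acetylation differed with how the 2 methyl marks lay. It was present at 10.1% of promoters with both marks where these overlapped and at 29.6% (25.02 to 34.7) where they did not. It was present at 25.4% of the 449 whose H3K27me3 domain was at most 500 bp wide and at 11.3% of the 699 whose domain was at least 3 kb wide. In the narrow domains 37.6% of the best peaks had an FDR under 0.05, against 99.4% in the wide ones, so peak strength moved together with acetylation and its part was not tested. With the window cut to 500 bp on either side of the start, 5.98% of promoters with both marks were acetylated.

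**Figure D4:**
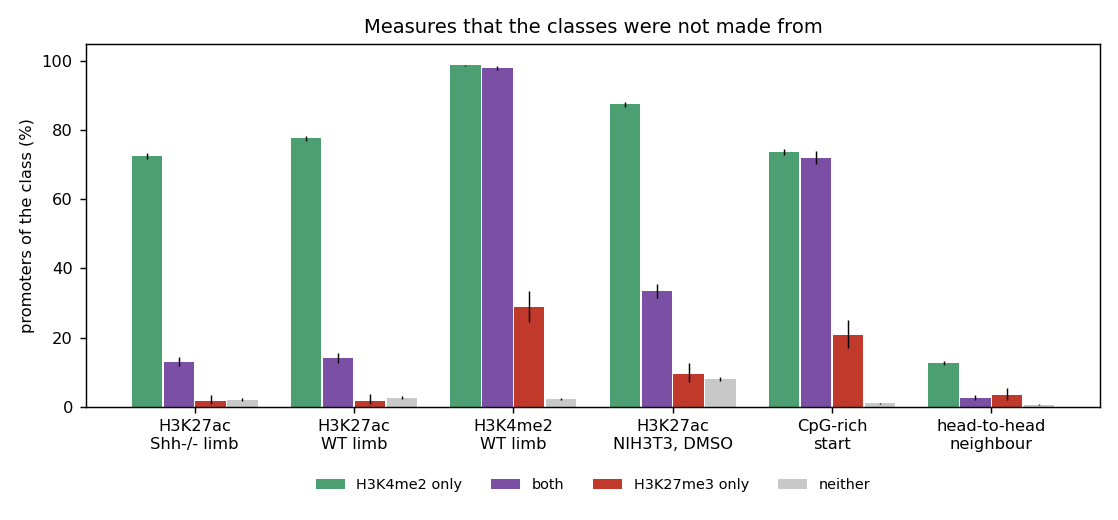
Share of the promoters of each class with a peak of a mark, or a sequence or position feature, that was not used to make the classes, in percent, with 95% Wilson intervals over genes. H3K27ac in Shh-/- buds is at 72.6% with H3K4me2 only and 13.0% with both marks, while the share of CpG-rich starts is 73.8% and 72.1%.

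The promoters with both marks that were acetylated in 1 genotype only were few. H3K27ac was called in WT and not in Shh-/- buds at 75 (3.29%, 2.63 to 4.10) and in Shh-/- and not in WT at 52 (2.28%, 1.74 to 2.98). With H3K4me2 only, the same numbers were 910 (8.13%) and 335 (2.99%). The 75 included Gli1, Grem1, Hoxd12, Hoxd13 and Osr1, which have been described, and also Evx1, Klf2, Foxj1 and Pdgfa, chosen here after their values were seen. The WT H3K27ac list is longer, with 49679 peaks against 43916, and a peak called in 1 list and not in the other is not a tested difference.

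H3K4me2 at these classes was nearly the same set of promoters in WT buds. The WT H3K4me2 list covered 98.8% of the promoters with H3K4me2 only and 98.1% (97.4 to 98.6) of those with both marks. It covered 28.75% (24.5 to 33.4) of the 400 with H3K27me3 only and 2.26% of those with neither. The value for H3K27me3 only depended on the rule: it was 61.9% with the better-ranked 50% of each list, 56.3% with the H3K4me2 list shortened to the size of the H3K27me3 list and 51.7% with at least 300 bp of each mark. The 115 genes with H3K27me3 only and a WT H3K4me2 peak included Shh, Dhh, Tlx1, Nkx2-3, Foxd3 and Cdx2. Using the WT list in place of the Shh-/- list left 329 promoters with H3K27me3 only. In NIH3T3 cells, which are fibroblasts and not limb cells, H3K27ac was called at 87.5% of promoters with H3K4me2 only, 33.4% with both, 9.5% with H3K27me3 only and 7.94% with neither after DMSO, and at 87.8%, 34.3%, 10% and 7.57% after purmorphamine. The NIH3T3 lists hold 91023 and 87809 peaks and so are not comparable in level with the limb lists.

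CpG content, which the classes were not made from either, differed between them. The ratio of observed to expected CpG over 500 bp on either side of the start had a median of 0.74 with H3K4me2 only (quartiles 0.61 and 0.85), 0.71 with both marks (0.59 and 0.81), 0.43 with H3K27me3 only (0.24 and 0.58) and 0.17 with neither (0.11 and 0.27). CpG-rich starts, with a ratio of at least 0.6 and a GC content of at least 50%, made up 73.8%, 72.1%, 20.75% and 0.928% of the classes. With the better-ranked 50% of each list they made up 40.8% of the class with H3K27me3 only and 8.56% of the class with neither. The class with both marks thus differed little from the class with H3K4me2 only in CpG content, although it was acetylated far less often. Of the promoters with H3K27me3 only, the 83 that were CpG-rich had a median of 2465 bp of H3K27me3 and the other 317 a median of 615 bp.

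Gene arrangement and length also differed between the classes. A coding gene starting head to head within 1 kb on the other strand was found at 12.7% of promoters with H3K4me2 only and at 2.59% with both. Gene length had a median of 27034.5 bp with both marks, 23590 bp with H3K4me2 only, 7916.5 bp with H3K27me3 only and 8541 bp with neither. The letters GACCACCCA, the core of the site that GLI factors bind, were found on either strand in 3.07% (2.44 to 3.86) of promoters with both marks, 3.75% with H3K27me3 only, 2.38% with H3K4me2 only and 2.47% with neither, against 2.51% of all promoters of this length. The intervals of both marked classes with H3K27me3 overlap that of the class with neither. A match is not a bound site.

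Across the whole genome most H3K27me3 peaks lay away from H3K4me2. Of 20830 H3K27me3 peaks, 4196 (20.1%, 19.6 to 20.7) overlapped an H3K4me2 peak. In promoters 59.3% did and elsewhere 9.97%. Of 38468 H3K4me2 peaks, 11.4% overlapped H3K27me3. The overlap followed the strength of the H3K27me3 peak: 70.6% of the best-ranked 10% of peaks overlapped H3K4me2 and 7.68% of the last 10%, with median widths of 2150 and 100 bp.

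**Figure D5:**
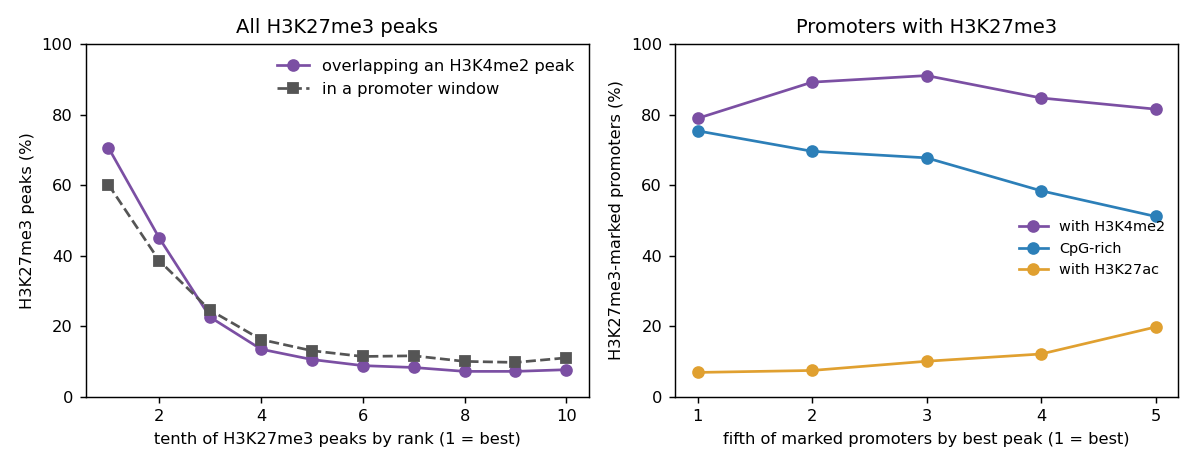
Left: share of H3K27me3 peaks in each of 10 equal parts of the list by rank that overlap an H3K4me2 peak or lie in a promoter window, in percent. Right: share of the 2680 promoters with H3K27me3 that carry H3K4me2, are CpG-rich or carry H3K27ac, in 5 equal parts by the rank of their best H3K27me3 peak. Overlap with H3K4me2 goes from 70.6% to 7.68% of peaks, and acetylation from 6.90% to 19.8% of promoters.

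At promoters the strength of the H3K27me3 peak bore a different relation to H3K4me2. In 5 equal parts of the 2680 promoters, from the strongest peaks to the weakest, 78.9%, 89.2%, 91.0%, 84.7% and 81.5% carried H3K4me2. The share was highest in the middle part. The first and last parts were close, with 423 and 437 of 536 promoters, and their difference was not tested. CpG-rich starts went from 75.4% to 51.1% and acetylated promoters from 6.90% to 19.8% over the same parts. Neurod2, Hoxc13 and Pax6 are in the first part.

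Joining H3K27me3 peaks up to 1 kb apart gave 14779 domains. The 1028 that were at least 3 kb wide overlapped H3K4me2 in 87.0% and held a coding start in 68.8%, whereas the 11598 of at most 500 bp did so in 3.85% and 0.319%. The widest with coding starts included those over Hoxc9 to Hoxc13 (80050 bp, 1.56% of it under H3K4me2), Hoxa10, Hoxa11 and Hoxa13 (48600 bp, 28.5% under H3K4me2), Hoxb13 (39100 bp), Sox2 (33500 bp), Gata4 (33300 bp), Pax6 (33150 bp) and Pax3 (32600 bp). H3K4me2 therefore covered a small part of most of these domains, with the Hoxa domain as the exception. The most extended runs of neighbouring genes with H3K27me3 held 8 genes each: Hoxb13 to Hoxb3, Evx2 to Hoxd3, Hoxa3 to Evx1, and a run on chromosome 17 from H2-D1 through the H2-Q genes to Pou5f1. The H2-Q genes are near-identical copies, and their marks are uncertain.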

How the data were processed

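ChIP-seq reads were aligned by the authors to mm10 with Bowtie2 2.2.5 (version from the submitters' processing notes) and peaks were called with CisGenome on both replicates of a mark against input. The deposited lists give, per the file headers, a rank, an FDR (q-value), a score (the largest statistic of ChIP against input), a maximal log2 ratio (ChIP over input) and a −log10 p-value for each peak, all made by the authors. They hold no read counts. The methods state a minimum sequencing depth for all libraries, and the depth of each library is not given in the sources used here. Every listed peak had a score above 3 and a −log10 p above 5. The antibody to H3K27me3 has different Abcam catalogue numbers in the labels and in the methods.

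Samples were grouped by their titles. Promoters were taken from GENCODE vM21 (basic set, APPRIS principal start), 2 kb before to 1 kb after the start, and overlaps were counted from 1 bp. Peaks off chromosomes 1 to 19, X and Y were left out. H3K27me3 peaks up to 1 kb apart were joined into domains. CpG content was measured over 500 bp on either side of the start. Shares have 95% Wilson intervals. No model was fitted and no p-value was computed, since each list pools its replicates. The members and the 37 gene lists (of which 1 gene was not found) were chosen with earlier results of these data known. Named genes were the 10 best-ranked of each marked class, the 5 most covered by H3K27me3 with both, the widest domains, up to 4 best-ranked members of each list in each class, and 20 study genes of the limb and the Hedgehog pathway; members of small remainders, and the exceptions of a list, were named after their values were seen. Some genes that this rule names, and 1 promoter sequence, are not reported here. The overlap functions were tested on simulated data. Python 3.11.15, numpy 2.4.6, pandas 2.3.3, scipy 1.17.1 and matplotlib 3.10.9 were used. Alternatives changed the promoter window, the start used, the thresholds, the list length, the overlap and the H3K4me2 list.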

Additional observations from a re-analysis of the deposited data

How the results depend on the processing

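No paired analysis was possible because each list pools the replicates of its mark, and for the same reason no replicate could be left out. The main values are the 4 class sizes, the genes with both marks on 6 gene lists, the share of H3K27me3 promoters with H3K4me2 (85.1% as reported), that of the other promoters (58.4%), H3K27ac with H3K4me2 only (72.6%), with both (13.0%) and with H3K27me3 only (1.5%), WT H3K4me2 with both (98.1%) and with H3K27me3 only (28.75%), CpG-rich with both (72.1%) and with H3K27me3 only (20.75%), marks overlapping where both were present (85.0%), and overlap of H3K27me3 peaks (20.1%) and of H3K4me2 peaks (11.4%) with the other mark. Over all alternatives, 128 comparisons of an alternative with a main value moved it by less than its interval (a count by less than 1.5 times) and 62 by more. For the remaining class shares and the H3K27me3 counts of 3 lists, 43 moved by less and 27 by more.

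With any coding start, other promoters had H3K4me2 in 60.0%, H3K27ac with both was 17.5% and CpG-rich with both 76.4%. With 500 bp on either side, the first 2 shares were 80.5% and 56.6%, H3K27ac 68.5% with H3K4me2 only and 5.98% with both, WT H3K4me2 with both 97.2%, CpG-rich 74.3% with both and 25% with H3K27me3 only, marks overlapping 93.2%, and 14 limb mesenchyme genes had both marks. With an FDR under 0.05, H3K27ac was 71.5% with H3K4me2 only and 10.9% with both, WT H3K4me2 with H3K27me3 only 37.9%, CpG-rich 74.8% and 25.9%, marks overlapping 88.6%, peak overlap 32.4% and 10.3%, and 3 Hedgehog genes had both. With the better-ranked 50% of each list, 669 promoters had H3K27me3 only, the first 2 shares were 70.4% and 51.2%, WT H3K4me2 99.7% with both and 61.9% with H3K27me3 only, CpG-rich 78.1% and 40.8%, peak overlap 24.3% and 11.8%, and 2 Hedgehog genes and 17 endoderm, heart and kidney genes had both.

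With the H3K4me2 list shortened to the size of the H3K27me3 list, 739 promoters had H3K27me3 only, the first 2 shares were 72.4% and 52.4%, H3K27ac 74.1% with H3K4me2 only and 14.8% with both, WT H3K4me2 99.7% with both and 56.3% with H3K27me3 only, CpG-rich 75.8% and 34.6%, and marks overlapping 83.4%. With at least 300 bp of each mark, the first 2 shares were 79.3% and 56.5%, H3K27ac 71.7%, 10.46% and 0.472% in the 3 classes, WT H3K4me2 99.5% with both and 51.7% with H3K27me3 only, and CpG-rich 76.9% and 34.9%. With the WT H3K4me2 list, the first share was 87.7%, H3K27ac with H3K27me3 only 0.304%, and peak overlap 21.1% and 12.2%. On autosomes other promoters had H3K4me2 in 59.6% and H3K27me3 peak overlap was 21.4%. Peak overlap was 10.3% and 8.14% with at least 50% of the peak, and 28.3% and 14.3% with a gap of up to 500 bp. With peaks within 1 kb joined in both lists, 14.8% of the joined H3K4me2 peaks overlapped H3K27me3. The overlap of marks was not run for any coding start or at least 300 bp. The causes were not tested. Without read counts per library, a promoter with no peak is not shown to lack the mark.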

Other observations

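CpG-rich starts without either mark were few, 74 of the 7976 promoters in that class. Genes of the germ line were among them, of which 13 were picked by hand after their values were seen, with no fixed list and without counting the others: Dazl, Ddx4, Mael, Sycp1, Sycp2, Sycp3, Slc25a31, Stk31, Taf7l, Hormad1, Spo11, Asz1 and Mov10l1. Dazl and Ddx4 encode RNA-binding proteins of germ cells, and the Sycp genes encode the synaptonemal complex of meiosis. None of the 13 had a peak of either mark at any of its coding starts. The 74 also held broadly used genes such as Ctnnb1 and Eif4a1, whose promoters had H3K27ac in Shh-/- buds and no H3K4me2 peak in either genotype. In all, 26 of the 74 had H3K27ac in Shh-/- buds and 22 had H3K4me2 in WT buds.

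The widest H3K27me3 domain of the genome held no coding start. It spanned 87450 bp (chr8:123537350-123624799), had no H3K4me2 and no H3K27ac peak in Shh-/- buds, and contained 51 annotated ribosomal RNA genes, of which 41 are named as 5S copies. Reads from such repeated copies cannot be placed with certainty, so the width of this domain is uncertain.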
